A study of Mus musculus with 20 samples.

Results

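Expression of 10 mouse genes that sense or act on foreign nucleic acid was followed in these data. *Oas1a*, *Oas2*, *Oas3*, *Oasl1* and *Oasl2* belong to the oligoadenylate synthetase (OAS) family. The others are the RNA helicase sensors *Ddx58*, *Ifih1* and *Dhx58*, the Z-nucleic acid sensor *Zbp1* and the RNA-activated kinase gene *Eif2ak2*. The 10 genes were chosen by name, with earlier results of these data known, among 19938 with a probe set that carries 1 gene symbol. Each has 1 such probe set. All 10 passed the filter on low values, which left 15272 genes for testing. RNA was hybridized to whole-transcript arrays of Affymetrix, and every level below is a log2 value on the scale of the deposited table. The arrays cover 4 lines of mouse embryo fibroblasts at 5 times, with 1 array for each line and time: immortalized fibroblasts (iMEFs) with Ubf fl/fl, iMEFs with Ubf wt/wt, primary fibroblasts (MEFs) with Ubf fl/fl and MEFs with Ubf wt/wt. In the fl/fl lines exons of the gene for UBF, a factor for transcription of the rRNA genes, are flanked by Lox sites, and both wt/wt lines keep the intact gene. All 4 lines, the controls included, carry Er-cre+/+, a Cre recombinase switched on by 4-hydroxytamoxifen (4-HT), and all received 4-HT at 50 nM over a period of 4 h. Cells were collected 0, 24, 48, 72 or 96 h post 4-HT (pHT), and the paper describes 0 h as the state before recombination of the gene. MEFs came from E14.5 embryos and iMEFs were obtained by transfection of the SV40 T and t antigens. Times of 0 and 24 h are called early here and times of 48, 72 and 96 h late. The paper reports near elimination of the UBF protein by the first of the late times. It also reports complete excision and already reduced protein by the second of the early times. The early arrays are therefore not all a state before loss of UBF, and only those at 0 h come before recombination. Each genotype is represented by 1 line per cell type and no array is repeated, so line and genotype cannot be told apart at 0 h and the tests below measure spread between times of a line.

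The oligoadenylate synthetases bind double-stranded RNA and make short 2′-5′ linked adenylates that activate RNase L, which then cuts RNA of the virus and of the cell. *Oasl1* and *Oasl2* encode OAS-like relatives. *Ddx58* encodes RIG-I and *Ifih1* encodes MDA5, cytoplasmic helicases that report viral RNA through the adaptor MAVS, and *Dhx58* encodes LGP2, a related helicase without the signalling domains. ZBP1 binds Z-form RNA and DNA and can start necroptosis, and the product of *Eif2ak2*, PKR, shuts down translation by phosphorylating eIF2α. All of these genes are known to be induced by type I interferon, whose signal reaches genes through the interferon-stimulated response element (ISRE).

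The start regions of 5 of these genes are shown because they hold the core of the ISRE. The 10 genes are known interferon-induced genes, so the share with this core is a description and not independent support. RefSeq windows from 250 bases before to 50 bases after the start were found for 7 of the 10 genes on build GRCm38.p6, and not for *Oas2*, *Dhx58* and *Zbp1*. The ISRE core, searched as GAAANNGAAA on both strands, occurred in 5 of the 7 windows (71.4%) and in 1131 of 32851 windows of all genes (3.44%). The stretches below run 5′ to 3′ on the strand of the gene, which is the minus strand for all 5, with the ISRE core in capitals.
Oas1a, chr5:120907526-120907625: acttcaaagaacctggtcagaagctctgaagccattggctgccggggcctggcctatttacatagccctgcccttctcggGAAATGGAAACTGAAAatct
Oas3, chr5:120777660-120777759: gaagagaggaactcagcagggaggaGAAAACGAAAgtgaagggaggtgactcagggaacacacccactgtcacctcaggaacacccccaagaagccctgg
Ddx58, chr4:40239796-40239895: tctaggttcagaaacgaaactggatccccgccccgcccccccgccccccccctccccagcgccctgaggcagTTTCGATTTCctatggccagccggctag
Eif2ak2, chr17:78882543-78882642: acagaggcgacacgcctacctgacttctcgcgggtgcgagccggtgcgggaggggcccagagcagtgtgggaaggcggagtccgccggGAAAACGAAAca
Ifih1, chr2:62646206-62646235: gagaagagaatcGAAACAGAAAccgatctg
In *Oas1a* the capitals hold a pair of cores that overlap by 4 bases, 20 to 5 bases before the start. In *Oas3* the core lies 75 to 66 bases before the start, and in *Ddx58* it reads in reverse, from base 3 to base 12 after the start. In *Eif2ak2* it runs from base 19 to base 28 and in *Ifih1* from base 33 to base 42 after the start. The windows of *Oasl1* and *Oasl2* do not hold these letters. A match describes the sequence and is not a measured binding site.

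Across the arrays, medians of the probe sets with 1 symbol were shifted by between -0.10 and 0.09 when they were set equal. The iMEF Ubf fl/fl array at 24 h stood apart: its median correlation with the other iMEF arrays over all genes was 0.941, against 0.959 to 0.980 for the others. Over all genes, the SD of its difference from the wt/wt array at the same time was 0.617, against 0.225 to 0.494 for the other pairs. *Ubtf*, the gene that encodes UBF, had a difference between fl/fl and wt/wt cells, after 24 h against before, of 0.13 ± 0.18 in iMEFs and 0.36 ± 0.18 in MEFs (estimate ± SE, limma, adjusted p = 0.704 and 0.718). Whether these probes lie in the excised exons is not given in the sources used here. Of 15 fibroblast markers, 12 to 13 lay over the 40th percentile of the array in iMEFs and 15 in MEFs, with mean levels of 9.37 to 10.11 in iMEFs and 11.40 to 11.68 in MEFs. Of 18 macrophage markers, 8 to 12 did so in iMEFs and 16 to 18 in MEFs, with mean levels of 6.13 to 6.56 in iMEFs, 9.15 to 9.59 in MEF Ubf fl/fl and 8.33 to 9.07 in MEF Ubf wt/wt. The macrophage gene *Adgre1* lay between 4.86 and 5.26 in iMEFs and between 8.02 and 9.36 in MEFs. In such bulk RNA fewer cells of a type and less RNA per cell cannot be told apart.

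All 10 genes were higher at 48 h pHT than at 0 h in each of the 4 lines, the wild-type controls included, and most were at their highest then. The largest rise in the fit common to the lines was that of *Zbp1*, 7.90-fold. The array at 48 h was the highest of a line for 8 genes in iMEF Ubf fl/fl, 10 in iMEF Ubf wt/wt, 7 in MEF Ubf fl/fl and 7 in MEF Ubf wt/wt. The median change of the 10 genes at 48 h relative to 0 h was 2.77 on the log2 scale in iMEF Ubf fl/fl, 1.74 in iMEF Ubf wt/wt, 1.02 in MEF Ubf fl/fl and 1.80 in MEF Ubf wt/wt. The median over all genes in these lines lay between -0.03 and 0.02.

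**Figure D1:**
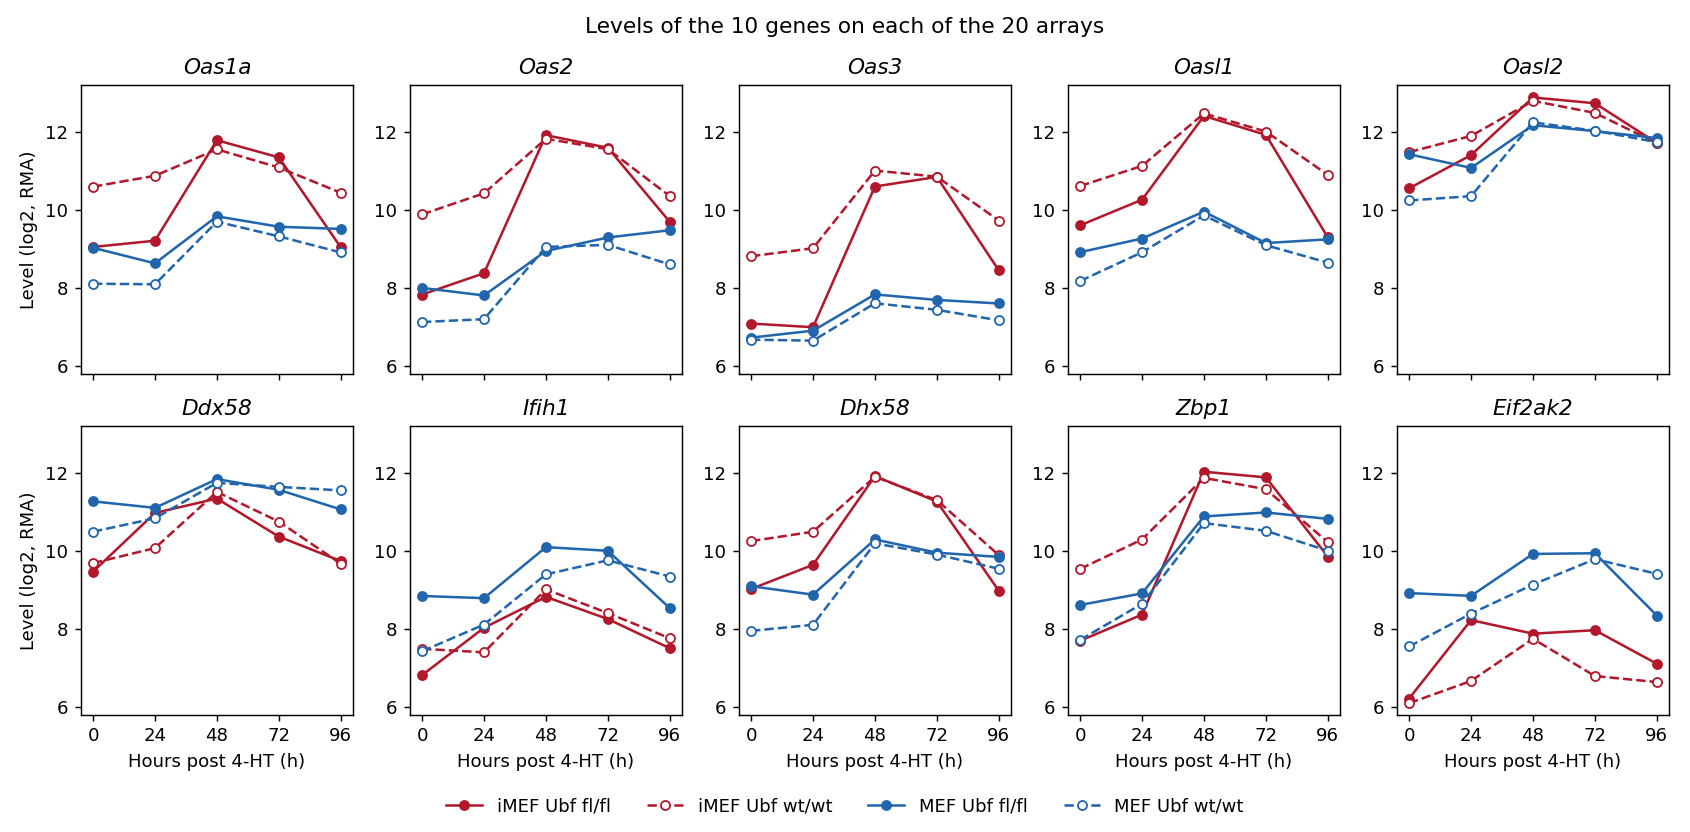
Log2 level (RMA, vertical axis) of each of the 10 genes against hours post 4-HT, with 1 point per array and 1 line of points for each of the 4 cell lines (filled, Ubf fl/fl; open, Ubf wt/wt; red, iMEFs; blue, MEFs). All 4 lines are higher at 48 h than at 0 h for every gene, and the red lines lie above the blue ones for *Oas3* but below them for *Eif2ak2*.

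*Zbp1* had the steepest course. In iMEF Ubf fl/fl its level was 7.69, 8.36, 12.03, 11.88 and 9.85 at 0, 24, 48, 72 and 96 h, and in iMEF Ubf wt/wt it was 9.53, 10.29, 11.87, 11.58 and 10.22. Its levels in MEF Ubf fl/fl were 8.61, 8.91, 10.88, 10.98 and 10.82, and in MEF Ubf wt/wt they were 7.71, 8.64, 10.71, 10.51 and 10.00. In all 4 lines every array from 48 h on lay above the array at 0 h, and the fl/fl and wt/wt arrays of a cell type differed by 0.16 in iMEFs and 0.17 in MEFs at 48 h.

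*Oas2*, whose product makes 2′-5′ oligoadenylates, followed the same order of times in iMEFs. Its level in iMEF Ubf fl/fl was 7.83, 8.37, 11.91, 11.59 and 9.69, and in iMEF Ubf wt/wt 9.88, 10.42, 11.82, 11.55 and 10.35. In MEF Ubf fl/fl it was 8.0, 7.80, 8.94, 9.29 and 9.48, and in MEF Ubf wt/wt 7.12, 7.20, 9.05, 9.10 and 8.60. The MEF Ubf fl/fl line was thus the only one of the 4 in which *Oas2* was highest at 96 h. *Oas3*, the largest synthetase, measured 7.08, 6.99, 10.60, 10.84 and 8.45 in iMEF Ubf fl/fl, and 8.81, 9.01, 11.01, 10.85 and 9.72 in iMEF Ubf wt/wt. In MEF Ubf fl/fl it measured 6.72, 6.90, 7.83, 7.69 and 7.60, and in MEF Ubf wt/wt 6.67, 6.65, 7.60, 7.44 and 7.17. For *Oas3* no MEF array reached the level of iMEF Ubf fl/fl at 96 h.

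*Oas1a*, a further synthetase gene, measured 9.05, 9.21, 11.78, 11.34 and 9.04 in iMEF Ubf fl/fl and 10.59, 10.87, 11.55, 11.08 and 10.44 in iMEF Ubf wt/wt. Its levels were 9.03, 8.63, 9.83, 9.57 and 9.51 in MEF Ubf fl/fl and 8.11, 8.09, 9.70, 9.32 and 8.91 in MEF Ubf wt/wt. In iMEF Ubf fl/fl *Oas1a* was back at its starting level at 96 h. *Dhx58* likewise measured 9.02 at 0 h, 11.91 at 48 h and 8.97 at 96 h in iMEF Ubf fl/fl, and 10.25, 11.90 and 9.89 at these times in iMEF Ubf wt/wt. *Oasl1* measured 9.60, 12.40 and 9.29 at these times in iMEF Ubf fl/fl and 10.61, 12.47 and 10.89 in iMEF Ubf wt/wt. In iMEF Ubf fl/fl both genes ended slightly under the level at 0 h. *Oasl2* stayed within a narrower range, from 10.24 in MEF Ubf wt/wt at 0 h to 12.88 in iMEF Ubf fl/fl at 48 h.

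The time effect common to the 4 lines was tested in 1 limma fit with a term for each line and each time. This comparison was chosen after these courses had been seen, and the 10 genes with earlier results of these data known. How many of them passed is therefore a description and not independent support. Every line carried Er-cre and received 4-HT, so time in culture, 4-HT and active Cre cannot be told apart in it. At 48 h against 0 h, 135 of 15272 genes passed an adjusted p of 0.05 (0.884%), and all 10 genes were among them, higher at 48 h. *Zbp1* was higher by 2.98 ± 0.35 (estimate ± SE, limma, adjusted p = 0.000391), *Oas2* by 2.22 ± 0.40 (adjusted p = 0.00791, limma) and *Dhx58* by 2.0 ± 0.33 (adjusted p = 0.00447, limma). For the other 7 the estimates ran from 1.38 for *Ddx58* to 1.94 for *Oas3*, with adjusted p from 0.00197 for *Oasl2* to 0.0422 for *Eif2ak2* (limma). The median of the 10 genes was 1.77, against -0.01 over all genes tested. With MEFs fitted alone 6 of the 10 passed, and with iMEFs alone 8. Without any 1 of the 4 iMEF arrays at 0 h and 48 h, 6 passed. Over the 20 fits that each left out a single array, the call of *Eif2ak2* was lost in 13 and that of *Oas1a* in 6. Those of *Oas3* and *Ddx58* were lost in 5 each, and the rest of the 10 genes kept their calls in all 20.

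After 48 h the genes came down again, most of all in iMEFs. All 10 were lower at 96 h than at 48 h in both iMEF lines, and 9 of 10 were so in each MEF line. The median change between these times was -2.16 in iMEF Ubf fl/fl, -1.38 in iMEF Ubf wt/wt, -0.39 in MEF Ubf fl/fl and -0.48 in MEF Ubf wt/wt. In the common fit, where 0.0982% of genes passed (2 higher and 13 lower at 96 h), none of the 10 genes did (0 of 10), although all 10 estimates were negative. They ran from -0.77 ± 0.24 for *Oasl2* to -1.65 ± 0.31 for *Oasl1*, the nearest to the threshold (adjusted p = 0.0592, limma). With iMEFs fitted alone 4 of the 10 passed.

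The lines did not start at the same levels, and the sign of the difference between genotypes was opposite in the 2 cell types. At 0 h, 9 of 10 genes were lower in iMEF Ubf fl/fl than in iMEF Ubf wt/wt (median difference -1.12), whereas 10 of 10 were higher in MEF Ubf fl/fl than in MEF Ubf wt/wt (median difference 0.91). At 24 h, 7 of 10 were lower in the fl/fl line of iMEFs and 10 of 10 higher in the fl/fl line of MEFs. At 48 h the fl/fl line was higher for 6 of 10 genes in iMEFs and for 8 of 10 in MEFs, and the medians of the difference were 0.05 and 0.12. Between the genotypes of iMEFs the difference at 0 h ran from -2.05 for *Oas2* to 0.12 for *Eif2ak2*, and at 48 h only from -0.41 for *Oas3* to 0.23 for *Oas1a*.

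**Figure D2:**
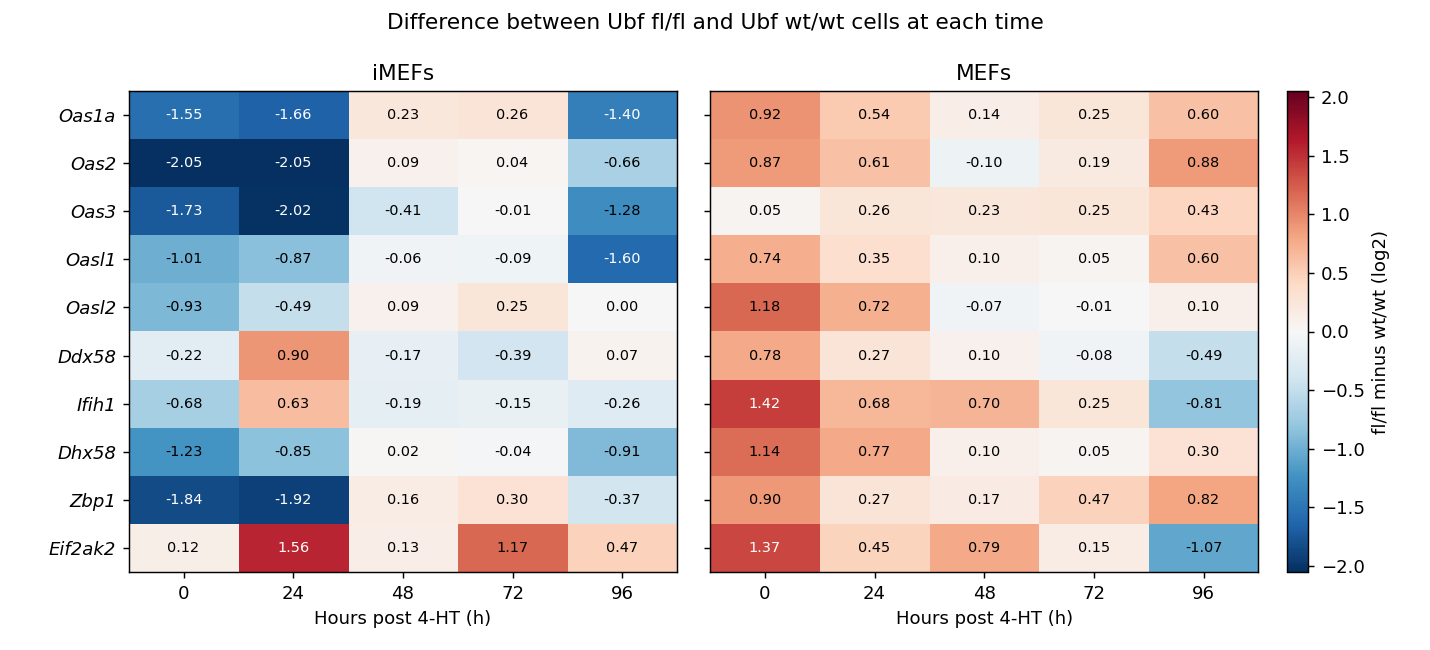
Log2 level of the fl/fl array minus that of the wt/wt array at the same time (colour and printed value) for each gene (rows) and hours post 4-HT (columns), with iMEFs on the left and MEFs on the right. In iMEFs *Oas2* differs by -2.05 at 0 h and by 0.09 at 48 h, and in MEFs all 10 genes are positive at 0 h.

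The early difference, that of the genotypes over 0 and 24 h, was estimated in a limma model with terms for line, time within cell type and genotype by late time. In iMEFs 14.3% of all genes passed, in a fit that includes the array that stood apart. Over all genes, the SD of the difference between the genotypes was 0.368 at 0 h and 0.225 at 24 h in MEFs. In iMEFs it was 0.356 at 0 h but 0.617 at 24 h, the time of that array. Of the 10 genes, 6 were lower in the fl/fl line of iMEFs. *Oas2* stood at -2.05 ± 0.23 (adjusted p = 0.000783, limma), *Zbp1* at -1.88 ± 0.20 (adjusted p = 0.000634, limma) and *Oas3* at -1.87 ± 0.23 (adjusted p = 0.00143, limma). *Oas1a* at -1.61 ± 0.32, *Dhx58* at -1.04 ± 0.21 and *Oasl2* at -0.71 ± 0.15 passed with adjusted p between 0.0134 and 0.0161 (limma). *Oasl1* stood at -0.94 ± 0.31 (adjusted p = 0.0646, limma). *Ddx58* (0.34 ± 0.24), *Ifih1* (-0.02 ± 0.35) and *Eif2ak2* (0.84 ± 0.43) did not pass. The array that stood apart enters this estimate: without it, *Oas2* and *Zbp1* passed (adjusted p = 0.0389 and 0.0373, limma) and the other 4 did not, at estimates from -0.93 for *Oasl2* to -1.73 for *Oas3*.

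In MEFs, where 0.34% of all genes passed, the early difference was positive for all 10 genes, between 0.15 for *Oas3* and 1.05 for *Ifih1*, and it passed only for *Oasl2* (0.95 ± 0.15, adjusted p = 0.0311, limma). That call was lost with MEFs fitted alone, and without any 1 MEF array at 0, 24 or 72 h or iMEF array at 48 or 72 h (0 of 10 called). The macrophage markers moved with it: 13 of 17 tested had a positive early difference in MEFs (median 0.24), with 0 called, and 1 of 17 a positive one in iMEFs (median -0.22), with 1 called, *Lyz2*, a gene for lysozyme that lay between 4.64 and 5.74 there. Their part in the result was not tested.

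The difference between the early differences of iMEFs and MEFs was tested after both had been seen. It passed for 1.32% of all genes and for 6 of the 10, the same 6 that were lower in iMEF Ubf fl/fl. It was -2.79 ± 0.32 for *Oas2* (adjusted p = 0.0032, limma), -2.46 ± 0.29 for *Zbp1* and -2.33 ± 0.46 for *Oas1a*, the last of these at an adjusted p of 0.0345 (limma). For *Ddx58* and *Eif2ak2* it was -0.18 ± 0.35 and -0.07 ± 0.61, the second of which was 0.07 after quantile normalization. Without any 1 of the 8 arrays at 0 and 24 h, 2 to 4 of the 10 passed.

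The question of the study's design is what changes after UBF is lost. The paper reports excision and loss of the UBF protein where it introduces the iMEFs, and gives no separate values for primary MEFs. The early arrays at 24 h follow the start of that loss, so they are not a baseline before it. The late effect is the difference between fl/fl and wt/wt cells over 48, 72 and 96 h minus that over 0 and 24 h, so it shares its early arrays with the early difference, and a line that starts low has a positive late effect once it reaches its control. In iMEFs 0.223% of all genes passed, and 2 of the 10 genes did, both higher: *Zbp1* at 1.91 ± 0.26 (3.77-fold, adjusted p = 0.0296, limma) and *Oas2* at 1.87 ± 0.30 (3.66-fold, adjusted p = 0.0366, limma). *Oas3* (1.31 ± 0.30, adjusted p = 0.0683, limma), *Oas1a* (1.30 ± 0.42), *Oasl2* (0.82 ± 0.19), *Dhx58* (0.73 ± 0.27) and *Oasl1* (0.35 ± 0.40) were positive without passing, and *Ddx58* (-0.50 ± 0.31), *Ifih1* (-0.18 ± 0.45) and *Eif2ak2* (-0.25 ± 0.56) were negative. The levels show what the estimates of *Zbp1* and *Oas2* rest on: over 48, 72 and 96 h the fl/fl line minus its control stood at 0.16, 0.30 and -0.37 for *Zbp1* and at 0.09, 0.04 and -0.66 for *Oas2*, against -1.84 and -2.05 at 0 h. Both calls were lost without the iMEF Ubf fl/fl array at 24 h (estimates 1.87 and 1.88, adjusted p = 0.418 and 0.529, limma). Without any 1 iMEF array at 24, 48 or 72 h, or either MEF array at 72 h, 0 of the 10 genes passed, without either MEF array at 0 or 24 h 1 passed, and without any 1 array at 96 h 4 passed.

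In MEFs no gene of the whole table passed for the late effect (0%, 1052 genes at an unadjusted p under 0.05, limma). The 10 genes lay between -1.0 ± 0.45 for *Ifih1* and 0.15 ± 0.30 for *Oas3*, with a median of -0.55 against 0.06 over all genes, and 9 of 10 were negative. The macrophage markers had a positive estimate for 14 of 17 genes there (median 0.65, 0 called), and their part was not tested. The estimate of *Oasl2* was -0.95 ± 0.19 (adjusted p = 0.636, limma). The difference in late effect between iMEFs and MEFs also passed for no gene (0%, 1136 at an unadjusted p under 0.05, limma). It was positive for 10 of 10 genes, from 0.18 ± 0.45 for *Ddx58* to 2.29 ± 0.42 for *Oas2* (adjusted p = 0.413, limma).

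**Figure D3:**
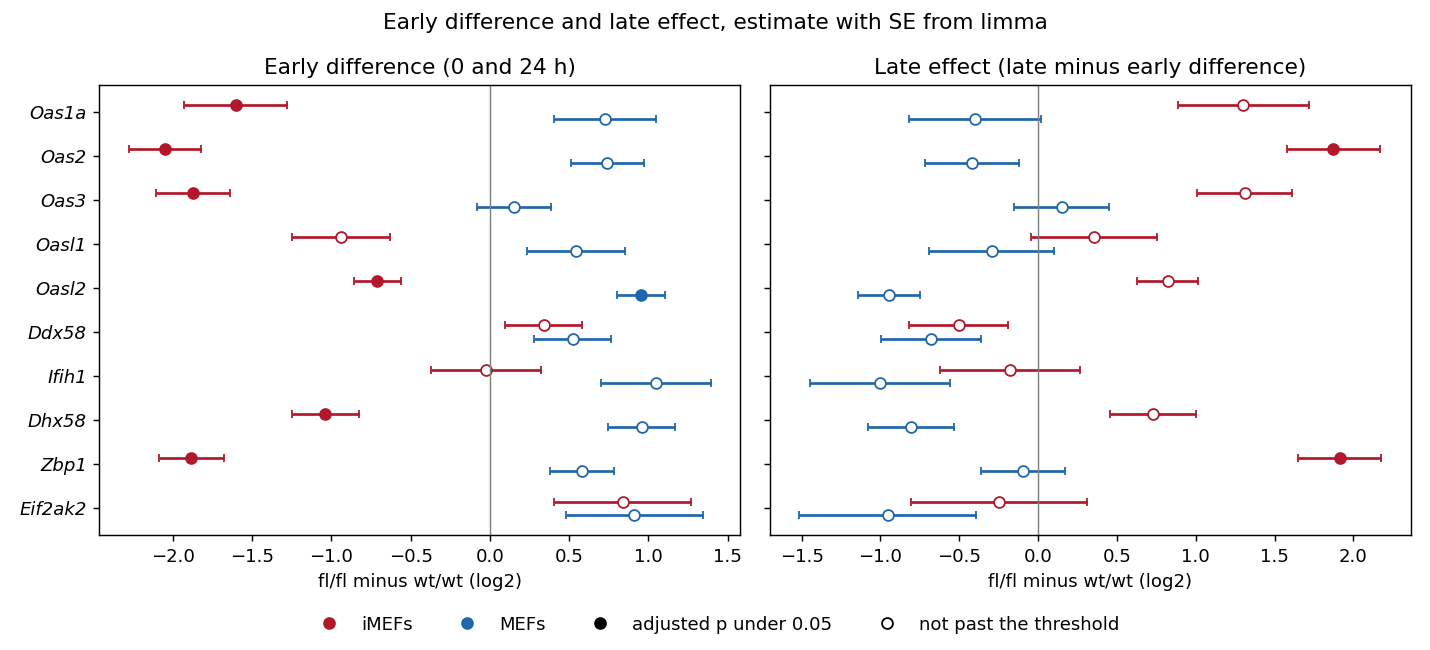
Early difference (left) and late effect (right) of each gene in log2 units, fl/fl minus wt/wt, as the limma estimate with its SE (bars), for iMEFs (red) and MEFs (blue). Filled points passed an adjusted p of 0.05: 6 genes for the early difference in iMEFs, *Oasl2* for that in MEFs, and *Oas2* and *Zbp1* for the late effect in iMEFs.

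Within single lines, the mean over 48, 72 and 96 h was compared with that over 0 and 24 h. In iMEF Ubf fl/fl, where 1.89% of all genes passed, *Zbp1* rose by 3.22 ± 0.54 (9.34-fold, adjusted p = 0.007, limma), *Oas2* by 2.96 ± 0.49 and *Oas3* by 2.92 ± 0.48 (adjusted p = 0.0066 for both, limma), and *Oasl2* by 1.46 ± 0.34 (adjusted p = 0.0422, limma). Without the array of this line at 24 h 0 of the 10 passed, without that at 72 h 1, and without that at 96 h 7. The call of *Oasl2* was lost in 15 of the 20 fits that left out a single array, of this or another line, that of *Oas2* and of *Zbp1* in 2 and that of *Oas3* in 1. In iMEF Ubf wt/wt all 10 estimates were positive, from 0.29 for *Oas1a* to 1.61 for *Oas3*, and none passed (0 of 10, with 0.151% of all genes passing). In MEF Ubf fl/fl (6.34% of all genes) *Zbp1* rose by 2.13 ± 0.54 (adjusted p = 0.0222, limma), a call lost without the array of this line at 0, 24 or 72 h (0 of 10). In MEF Ubf wt/wt (4.43% of all genes) *Zbp1* rose by 2.23 ± 0.54, *Ifih1* by 1.73 ± 0.47 and *Oasl2* by 1.71 ± 0.34 (adjusted p = 0.0255, 0.0439 and 0.00728, limma), calls lost in 5, 11 and 1 of the 20 fits that left out a single array. Without any 1 array of this line 0 or 1 passed. The Ubf wt/wt control of the MEFs thus had more of the 10 genes past the threshold than the floxed MEF line, and the late effect, which is the difference between these changes, did not pass. Of 17 macrophage markers 2 also rose in iMEF Ubf fl/fl, *Mpeg1* and *Cd68* (median of the 17, 0.10), 2 fell in MEF Ubf wt/wt (median -0.48), and 0 passed in MEF Ubf fl/fl (median 0.13) and in iMEF Ubf wt/wt (median -0.17). The part of such cells in the result was not tested.

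*Ddx58*, *Ifih1* and *Eif2ak2* differed from the rest of the 10 genes at 24 h in iMEFs and at 96 h in MEFs. Their signs of fl/fl minus wt/wt at these times were shared by 31.3% of all genes tested, and do not single these genes out. The level of *Eif2ak2* was 6.21, 8.22, 7.88, 7.96 and 7.10 in iMEF Ubf fl/fl and 6.09, 6.66, 7.74, 6.79 and 6.63 in iMEF Ubf wt/wt. It was 8.92, 8.84, 9.92, 9.94 and 8.34 in MEF Ubf fl/fl and 7.55, 8.39, 9.13, 9.79 and 9.41 in MEF Ubf wt/wt. In both iMEF lines *Eif2ak2* was under this percentile at 0 h, and it was over it on the other 18 arrays. *Ddx58* measured 9.46, 10.97, 11.34, 10.36 and 9.74 in iMEF Ubf fl/fl and 9.68, 10.07, 11.51, 10.75 and 9.67 in iMEF Ubf wt/wt. Its MEF Ubf fl/fl arrays measured 11.27, 11.10, 11.84, 11.56 and 11.06, and its MEF Ubf wt/wt arrays 10.49, 10.83, 11.74, 11.64 and 11.55. No MEF array of *Ddx58* lay under the 0 h array of either iMEF line. *Ifih1* measured 6.81, 8.03, 8.82, 8.25 and 7.50 in iMEF Ubf fl/fl and 7.49, 7.40, 9.01, 8.40 and 7.76 in iMEF Ubf wt/wt. In MEF Ubf fl/fl it measured 8.84, 8.79, 10.09, 10.00 and 8.53, and in MEF Ubf wt/wt 7.42, 8.11, 9.40, 9.75 and 9.34.

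By 24 h these 3 genes had gained 2.01 (*Eif2ak2*), 1.51 (*Ddx58*) and 1.21 (*Ifih1*) over 0 h in iMEF Ubf fl/fl, against 0.57, 0.39 and -0.09 in iMEF Ubf wt/wt. These are values of the array that stood apart, with no array to repeat them. Over the same interval the 5 OAS family genes in iMEF Ubf fl/fl changed by between -0.09 for *Oas3* and 0.85 for *Oasl2*. At 96 h in MEFs, the fl/fl line lay under the wt/wt line for these 3 genes only, by -1.07 for *Eif2ak2*, -0.81 for *Ifih1* and -0.49 for *Ddx58*, whereas the other 7 lay above it by 0.10 to 0.88. Of all 15272 genes tested, 4775 (31.3%) lay above the control at 24 h in iMEFs and under it at 96 h in MEFs. The 3 genes are thus no larger a share of the genes followed here than the pattern has among all genes. The tests above do not single out a time, so these differences at 1 time are values of single arrays without a test.

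The 2 cell types differed in which of the 10 genes they expressed more. Between the wt/wt lines, where 75.5% of all genes passed, *Oas3* was higher in iMEFs by 2.69 ± 0.34 (6.45-fold, adjusted p = 3.4e-06, limma), *Oas2* by 2.66 ± 0.35, *Oasl1* by 2.46 ± 0.47 and *Oas1a* by 2.18 ± 0.37. *Dhx58* (1.75 ± 0.43), *Zbp1* (1.27 ± 0.38) and *Oasl2* (0.86 ± 0.24) were higher too, with adjusted p between 0.00174 and 0.00641 (limma). *Eif2ak2* was lower in iMEFs (-1.99 ± 0.38, adjusted p = 0.000181, limma), as was *Ddx58* (-0.89 ± 0.34, adjusted p = 0.026, limma), and *Ifih1* stood at -0.72 ± 0.33 (adjusted p = 0.058, limma). Between the fl/fl lines, where 69.2% of all genes passed, *Oasl1* (1.30 ± 0.47), *Oas3* (1.24 ± 0.34) and *Oas2* (1.01 ± 0.35) were higher in iMEFs. *Eif2ak2* (-1.71 ± 0.38), *Ifih1* (-1.37 ± 0.33) and *Ddx58* (-0.99 ± 0.34) were lower in iMEFs, with adjusted p between 0.000762 and 0.0172 (limma). With such shares of all genes passing, 9 and 6 of the 10 genes do not stand out by their number. Without the iMEF array at 24 h or the MEF array at 0 h, 4 of the 10 passed between the fl/fl lines. Setting the array medians equal moved the median of all genes by 0.14 in fl/fl and 0.12 in wt/wt cells and left the same number of the 10 genes past the threshold in each direction. The macrophage markers were lower in iMEFs for 17 of 17 tested genes in fl/fl cells (median -3.26) and for 16 of 17 in wt/wt cells (median -2.30), and their part in these differences was not tested.

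The 10 genes fell into loose groups by their courses. As a description over arrays that share lines and times, the Pearson correlation of a pair over the 10 iMEF arrays ran between 0.25 and 0.99 with a median of 0.86, and over the 10 MEF arrays between 0.57 and 0.99 with a median of 0.84. In iMEFs the closest pair was *Oas2* and *Zbp1* (0.994) and the most distant *Oas1a* and *Eif2ak2* (0.25). In MEFs *Oasl2* and *Dhx58* were the closest (0.993), followed by *Ifih1* and *Eif2ak2* (0.984). Correlated with the mean of the other 9 genes over all 20 arrays, *Oasl2* stood at 0.963, *Dhx58* at 0.944 and *Zbp1* at 0.939, and *Ddx58* at 0.291, *Ifih1* at 0.383 and *Eif2ak2* at -0.03. Within MEFs alone the last 3 reached 0.917, 0.905 and 0.815.

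**Figure D4:**
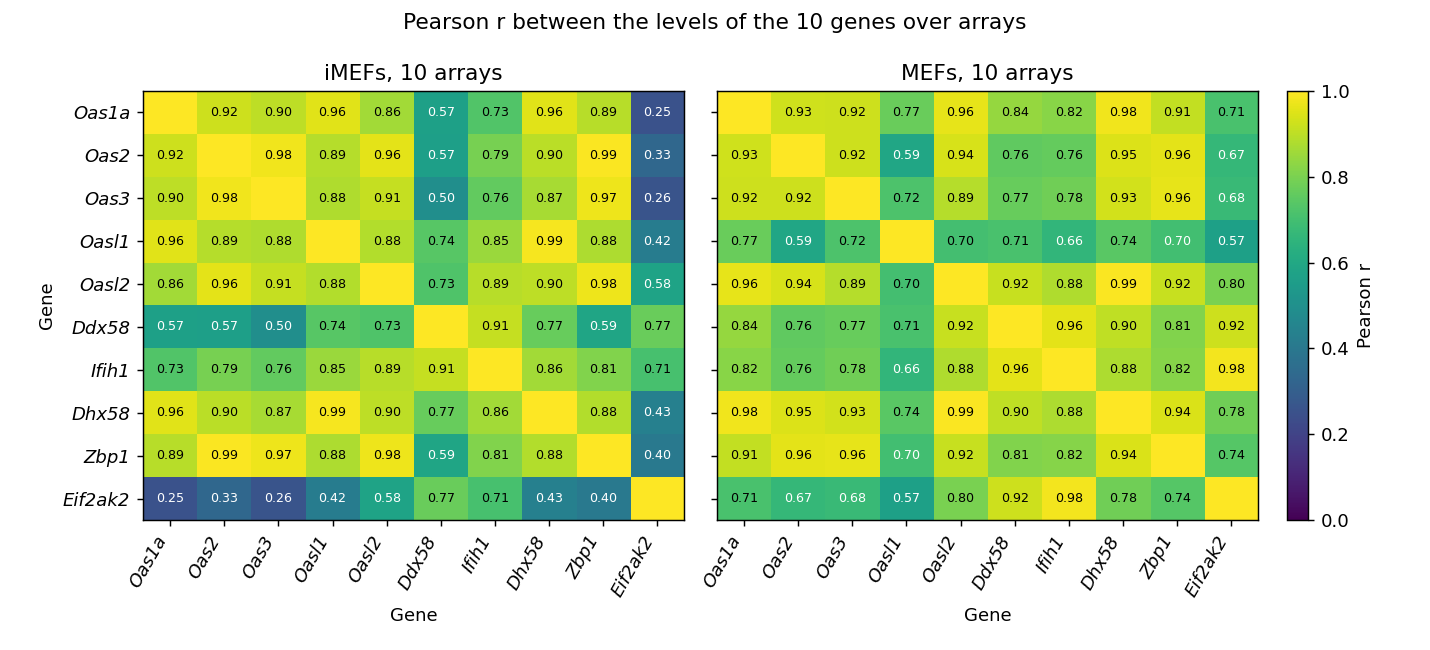
Pearson correlation (colour and printed value) between the log2 levels of each pair of the 10 genes (rows and columns) over the 10 iMEF arrays (left) and the 10 MEF arrays (right). *Eif2ak2* has the lowest values in iMEFs, 0.25 with *Oas1a*, but 0.98 with *Ifih1* in MEFs.

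Of the 15262 other genes, those most like the centred mean of the 10 genes over the 20 arrays were *Oas1b* (r = 0.979), *Usp18* (0.961), *Rsad2* (0.960), *Rtp4* (0.950), *Adar* (0.948), *Uba7* (0.936), *Irf9* (0.931) and *Ube2l6* (0.929). *Oas1b* lies in the same gene cluster as *Oas1a*. Over the iMEF arrays alone these 8 correlations ran from 0.952 for *Adar* to 0.996 for *Oas1b*, and over the MEF arrays from 0.869 for *Uba7* to 0.980 for *Oas1b*.

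The rest of the pathway was counted at 48 h against 0 h in the fit common to the lines, where 0.884% of all genes passed. These lists too were chosen with earlier results of these data known, so their counts are a description. Of 22 classical interferon-stimulated genes tested, 19 were higher and 0 lower (median 1.67), among them *Rsad2*, the gene of the antiviral enzyme viperin (3.17 ± 0.30), *Cxcl10*, a chemokine (2.17 ± 0.21), *Gbp3*, a guanylate-binding GTPase (2.48 ± 0.27), and *Ifit2* (2.0 ± 0.22). Of 14 other nucleic acid sensors, 5 were higher (median 0.13): *Ifi203* (2.72 ± 0.35), *Ifit1*, which binds viral RNA without the cap methylation of host RNA (2.47 ± 0.39), *Ddx60* (1.52 ± 0.23), the endosomal receptor for double-stranded RNA *Tlr3* (1.5 ± 0.23) and the RNA editing gene *Adar* (1.06 ± 0.20). Upstream of interferon, 1 of 11 adaptors and kinases was higher, *Rnf135*, a ubiquitin ligase for RIG-I (0.85 ± 0.18), and *Mavs* stayed between 9.92 and 10.62 on all 20 arrays. Of 19 interferon ligand genes listed, 15 had a probe set and 8 passed the filter and were tested, of which 0 were higher (median 0.07). *Ifnb1* was not tested, since it lay between 5.19 and 6.19 and was over the 40th percentile of the probe sets on 0 of 20 arrays. Of 11 receptors and signal transducers, 2 were higher, *Stat2* (1.35 ± 0.23) and *Irf9* (0.61 ± 0.13), and of 6 interferon regulatory factors *Irf7* (1.88 ± 0.23) and *Irf2* (0.57 ± 0.13) were higher. Of 10 brakes on the response, 3 were higher: *Trim30a* (2.66 ± 0.34), the deISGylase gene *Usp18* (1.60 ± 0.27) and *Samhd1* (0.67 ± 0.15). All of these passed an adjusted p of 0.05 by limma. Of 5 genes for the other eIF2 kinases and their phosphatase 0 passed, of 15 fibroblast markers 0, of 17 macrophage markers 0 (median -0.18), of 6 epithelial markers 0, and of 6 plasmacytoid dendritic cell markers 1, *Bst2*, which is also interferon-stimulated.

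The same lists were counted for the early difference, which covers 0 and 24 h. The iMEF Ubf fl/fl array at 24 h, which stood apart, enters all the iMEF estimates of this paragraph. For the early difference in iMEFs (14.3% of all genes), 9 of 22 classical interferon-stimulated genes were lower in Ubf fl/fl and 0 higher (median -0.60), with *Bst2* at -1.67 ± 0.16 and *Psmb8*, an immunoproteasome subunit, at -1.80 ± 0.20. Of 6 interferon regulatory factors 3 were lower and 0 higher, with *Irf7* at -1.29 ± 0.21, and of 2 further OAS family genes *Oas1b* was lower (-0.92 ± 0.23). Of 10 brakes 2 were lower, with *Trim30a* at -1.66 ± 0.27, and 1 higher, of 14 other sensors 2 were lower and 2 higher, and of 11 receptors and signal transducers 1 was lower, *Stat2* (-0.59 ± 0.14), and 3 higher, with *Jak1*, a receptor-bound kinase, at 1.18 ± 0.23. Of 5 genes for the other eIF2 kinases and their phosphatase 2 were higher and 0 lower, and of 11 adaptors and kinases and 8 ligands 0 passed (all by limma, adjusted p under 0.05). In MEFs (0.34% of all genes) 0 of the 22 classical genes passed, 21 of 22 were positive (median 0.52), and *Trim30a* was higher by 2.10 ± 0.27 in Ubf fl/fl (adjusted p = 0.0141, limma). For the late effect in iMEFs (0.223% of all genes) 0 of the 22 passed, with 18 positive and a median of 0.51.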

How the data were processed

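The 20 arrays are 1 for each of 4 lines and 5 times, grouped by the labels. The authors deposited a table of log2 values for 35556 probe sets, which per the labels and methods had been normalized by RMA-sketch in Affymetrix Power Tools 1.14.4. The array type is given as Mouse Gene 2.0 ST in the methods, but the deposited probe set IDs match Mouse Gene 1.0 ST, and symbols came from an annotation of that array. The number of arrays limits the precision.

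For each gene the probe set with 1 symbol and the highest mean was taken, and genes over the 40th percentile of the array on at least 2 arrays were kept (15272 of 19938). Tests used limma 3.58.1 (R 4.3.3), p-values were adjusted by Benjamini-Hochberg over all genes kept, and the threshold was 0.05. The early difference and late effect come from a model with terms for line, time within cell type and genotype by late time within cell type (6 residual degrees of freedom, prior 4.78). Changes within a line and differences between cell types come from means of line and phase (12, prior 5.04), and the time common to the lines from line and time (12, prior 4.55). Times of a line thus stand in for replicates, and p-values measure spread between arrays that may be technical.

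On simulated data with 15272 genes, limma recovered for the late effect in iMEFs 51 of 100 genes changed by 1 and 93 of 100 changed by 2 (7 false calls), for the late change in iMEF Ubf fl/fl 80 and 99 (10), and for 48 h against 0 h 91 and 99 (8). These counts check the code and do not give the rate of false calls on the real arrays. There, leaving out single arrays moved the number of all genes called for the late effect in iMEFs between 0 and 998.

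The 10 genes and the gene lists were chosen with earlier results of these data known. The common time effect and the difference in early difference were added after the data were seen. Named besides the 10 genes and *Ubtf* were at most 4 genes per list past the threshold, by smallest p, and the 8 genes most like the 10. *Adar* as the fifth sensor, *Mavs*, *Ifnb1*, *Ifit1* in the closing section, *Adgre1* and *Bst2*, *Lyz2*, *Mpeg1* and *Cd68* as markers were named after their values were seen. Alternatives were the scaling of arrays, the filter, the probe set rule, the placing of the 24 h arrays, each late time left out, empirical Bayes settings, each cell type alone and each array left out. Probe sets with several symbols (1621) or none listed (12146) were left out. Sequences are from RefSeq, build GRCm38.p6.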

Additional observations from a re-analysis of the deposited data

Results flagged for a closer look

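The difference between fl/fl and wt/wt cells over 0 and 24 h differed between the cell types for 6 genes by a test of the difference itself, iMEFs minus MEFs, chosen after the data were seen (limma, adjusted over 15272 genes). It was -2.79 for *Oas2* (adjusted p = 0.0032), -2.46 for *Zbp1* (adjusted p = 0.00327) and -2.33 for *Oas1a* (adjusted p = 0.0345). It was -2.03 for *Oas3* (adjusted p = 0.0182), -2.00 for *Dhx58* (adjusted p = 0.0109) and -1.66 for *Oasl2* (adjusted p = 0.00422). For each of the 6 the fl/fl array lay under the wt/wt array in iMEFs and above it in MEFs, at both 0 and 24 h. Each genotype is 1 line per cell type, so line and genotype cannot be told apart.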

How the results depend on the processing

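Values below are counts of the 10 genes called, unless named otherwise. With the 24 h arrays left out, the counts were 0 for the late effect in iMEFs, 1 for the early difference in iMEFs, 0 for that in MEFs, 1 for the difference between them, and 0 for the late change in iMEF Ubf fl/fl, MEF Ubf fl/fl and MEF Ubf wt/wt. With 24 h counted as late all of these were 0, and the difference between iMEFs and MEFs in fl/fl fell to 3. Without the 48 h arrays the late effect in iMEFs called 1. Without the 72 h arrays it called 0, as did the early difference in MEFs and the late change in iMEF Ubf fl/fl, MEF Ubf fl/fl and MEF Ubf wt/wt, and the difference between iMEFs and MEFs in fl/fl called 3. Without the 96 h arrays the late effect in iMEFs called 7, the difference in late effect 2, the early difference in MEFs 4, and the late change 7 in iMEF Ubf fl/fl, 4 in iMEF Ubf wt/wt, 7 in MEF Ubf fl/fl and 7 in MEF Ubf wt/wt. With each cell type fitted alone the early difference in MEFs called 0 and the late change 0 in iMEF Ubf fl/fl, 6 in MEF Ubf fl/fl and 8 in MEF Ubf wt/wt. At 48 h against 0 h MEFs alone called 6, and at 96 h against 48 h iMEFs alone called 4. The causes of these shifts were not tested.

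Leaving out single arrays gave 0 to 4 for the late effect in iMEFs, 2 to 7 for the early difference in iMEFs, 0 to 2 for that in MEFs, 2 to 7 for the difference between them, 0 to 7 for the late change in iMEF Ubf fl/fl, 0 to 1 in iMEF Ubf wt/wt, 0 to 2 in MEF Ubf fl/fl, 0 to 6 in MEF Ubf wt/wt, 6 to 10 for 48 h against 0 h and 0 to 4 for 96 h against 48 h.

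Some single log2 estimates changed sign. For the late effect in iMEFs, *Ddx58*, *Ifih1* and *Eif2ak2* were 0.058, 0.48 and 0.47 with 24 h left out and 0.32, 0.68 and 0.71 with 24 h as late, and over single arrays left out ran from -1.06 to 0.058, -0.83 to 0.48 and -0.97 to 0.47. For the late effect in MEFs *Zbp1* was 0.062 without 48 h and ran from -0.41 to 0.22. For the difference in late effect *Ddx58* was -0.11 without 96 h and ran from -0.39 to 0.74, and *Eif2ak2* ran from -0.013 to 1.43. For the early difference in iMEFs *Ddx58* was -0.22 with 24 h left out or as late and ran from -0.22 to 0.90, and *Ifih1* ran from -0.68 to 0.63. For the difference in early difference *Eif2ak2* was 0.073 after quantile normalization and ran from -0.79 to 0.65, and *Ddx58* ran from -0.74 to 0.38. For the late change in iMEF Ubf fl/fl *Ddx58* was -0.17 without 48 h and ran from -0.49 to 1.02, and *Eif2ak2* ran from -0.58 to 1.43. Between iMEFs and MEFs in fl/fl *Oasl2* was -0.22 with 24 h left out and -0.23 with 24 h as late and ran from -0.13 to 0.29, and *Zbp1* was 0.15 without 96 h and ran from -0.38 to 0.17. At 96 h against 48 h *Oas2* was 0.042 with MEFs alone. None of these estimates passed the threshold in the main setting.

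Of all 1480 values under other settings 1327 kept their direction and side of the threshold, and of 2800 with a single array left out 2570 did. The number of all genes called moved more: 0 to 1663 around 34 for the late effect in iMEFs, 29 to 4755 around 2190 for the early difference in iMEFs, 4 to 184 around 52 for that in MEFs, 0 to 2901 around 288 for the late change in iMEF Ubf fl/fl, 0 to 147 around 23 in iMEF Ubf wt/wt, 0 to 1279 around 968 in MEF Ubf fl/fl, 0 to 1039 around 676 in MEF Ubf wt/wt, 8 to 504 around 201 for the difference in early difference, 87 to 216 around 135 for 48 h against 0 h and 0 to 392 around 15 for 96 h against 48 h. Scaling moved the share of higher calls for the early difference in iMEFs to 52.4% after quantile normalization, against 69.0%, for the late change in iMEF Ubf fl/fl to 67.5%, against 49.0%, in iMEF Ubf wt/wt to 61.1%, against 91.3%, and for the difference between iMEFs and MEFs in fl/fl to 63.3% after array medians were set equal, against 52.5%. For 96 h against 48 h it moved to 0% with equal medians, against 13.3%. The labels give no replicate numbers, and the model of the early difference and late effect already pairs the genotypes of a cell type by time.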

Other observations

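A further probe set names both *Oas1a* and *Oas1g* and was left out, since its value cannot be given to 1 gene. Its level was 9.18, 9.45, 11.80, 11.53 and 9.76 at 0, 24, 48, 72 and 96 h in iMEF Ubf fl/fl and 10.73, 10.98, 11.91, 11.57 and 10.77 in iMEF Ubf wt/wt. It was 9.11, 8.84, 9.98, 9.74 and 9.68 in MEF Ubf fl/fl and 7.85, 7.93, 9.82, 9.52 and 9.10 in MEF Ubf wt/wt. Over the 20 arrays it correlated with the *Oas1a* probe set at r = 0.987, as a description of arrays that share lines and times.

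*Ifit1* measured 6.79, 9.01, 9.39, 8.99 and 8.27 in iMEF Ubf fl/fl and 6.96, 7.86, 9.83, 9.05 and 8.69 in iMEF Ubf wt/wt. In MEF Ubf fl/fl it measured 9.99, 9.68, 11.34, 10.99 and 9.52, and in MEF Ubf wt/wt 7.87, 9.31, 10.91, 11.50 and 10.79. As for *Ddx58*, *Ifih1* and *Eif2ak2*, its fl/fl array lay above the wt/wt array at 24 h in iMEFs and under it at 96 h in MEFs, which held for 31.3% of all genes tested.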
